A study of Mus musculus with 4 samples.

Results

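The regions described here were 8822 CpG-dense tiles that carried little DNA methylation in wild-type B cells. The autosomes of the mouse genome (build mm9) were divided into tiles of 1000 bases, and a tile was a member when its library set covered at least 20 different CpGs, when the wild-type B cell library gave at least 50 CpG calls in it, and when fewer than 20% of those calls were methylated. A CpG call is the reading of 1 CpG in 1 sequencing read. Of 421973 autosomal tiles with a covered CpG, 9268 held 20 or more covered CpGs and 9265 of those had 50 calls in wild-type B cells, so that 8822 of 9265 qualified. The remaining CpG-dense tiles were 333 at 20% to 80% and 110 at 80% or more. Members held 293839 covered CpGs, 20.4% of the covered autosomal CpGs. Because the wild-type B cell library chose the tiles, its levels below are a description and carry no test.

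The study profiled CpG methylation by reduced representation bisulfite sequencing, in which DNA is cut by MspI and TaqI, short fragments are kept, and bisulfite treatment converts unmethylated cytosines so that they read as thymine. Mice of the CBAxC57BL/6J background carried a Bcl6 cDNA driven by the Sca1 promoter, so that this transcriptional repressor was produced in hematopoietic stem and progenitor cells (HSPCs), and Cre produced with Cd79a removed the transgene in B lineage cells; these animals are called Sca1-BCL6Δ. The 4 libraries were HSPCs sorted as Sca1+Lin- cells from bone marrow and mature B cells sorted as B220+ cells from peripheral blood, each from Sca1-BCL6Δ and from wild-type mice. Each library was made from DNA pooled from 6 to 9 mice, so there was 1 library per condition and no biological replicate. In the Sca1-BCL6Δ HSPCs the transgene was present, whereas in the Sca1-BCL6Δ B cells it was to have been deleted, and genotype, pool and library cannot be told apart. The age of the animals and which transgenic line gave each pool are not given in the sources used here. Methylation tables cannot check the sorted cell types against RNA markers.

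Most CpGs of a mammalian genome are methylated, and CpG-dense stretches, the CpG islands, are the main exception. Islands overlap the promoters of most housekeeping genes and of many developmental regulators, and proteins with a CXXC domain bind their unmethylated CpGs and recruit enzymes that place histone marks at odds with DNA methylation. De novo methylation is carried out by Dnmt3a and Dnmt3b, maintenance by Dnmt1 with Uhrf1, and oxidation of the methyl group by the Tet enzymes.

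Promoters of 4 genes are shown because they make visible which CpGs of a member tile were read and from where the reads began. Bcl6 is the gene whose cDNA was the transgene, Crebbp encodes an acetyltransferase that opposes Bcl6, and Dnmt3a encodes a de novo methyltransferase. Taf13, a subunit of the general transcription factor TFIID, lay in a tile with raised levels in HSPCs and in Sca1-BCL6Δ B cells. The sequences are RefSeq promoters of build GRCm38.p6, from 250 bases before to 50 bases after the gene's start, written 5′ to 3′ on the gene's strand. Capitals mark covered CpGs, and all 4 letters of CCGG (the MspI site) or TCGA (the TaqI site) are in capitals where reads began at that site.
Bcl6, chr16:23988803-23989102, minus strand: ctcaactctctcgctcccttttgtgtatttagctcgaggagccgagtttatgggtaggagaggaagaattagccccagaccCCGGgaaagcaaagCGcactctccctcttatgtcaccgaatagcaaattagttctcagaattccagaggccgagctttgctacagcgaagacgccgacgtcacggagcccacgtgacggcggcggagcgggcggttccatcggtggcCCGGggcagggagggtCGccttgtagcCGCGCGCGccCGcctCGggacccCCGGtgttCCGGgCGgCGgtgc
Crebbp, chr16:4213355-4213654, minus strand: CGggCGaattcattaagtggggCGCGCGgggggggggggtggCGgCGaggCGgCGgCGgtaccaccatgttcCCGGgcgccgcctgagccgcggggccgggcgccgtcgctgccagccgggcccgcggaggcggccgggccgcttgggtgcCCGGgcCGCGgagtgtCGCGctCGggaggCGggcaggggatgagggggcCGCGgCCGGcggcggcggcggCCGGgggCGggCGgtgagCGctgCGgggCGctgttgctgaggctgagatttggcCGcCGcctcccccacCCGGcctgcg
Dnmt3a, chr12:3806730-3807029, plus strand: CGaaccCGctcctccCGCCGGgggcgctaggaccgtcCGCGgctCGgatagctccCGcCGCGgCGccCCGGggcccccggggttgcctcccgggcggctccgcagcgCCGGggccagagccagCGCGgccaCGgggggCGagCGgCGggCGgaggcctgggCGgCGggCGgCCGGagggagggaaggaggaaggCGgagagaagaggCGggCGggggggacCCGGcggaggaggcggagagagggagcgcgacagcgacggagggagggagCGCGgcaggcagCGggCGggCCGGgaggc
Taf13, chr3:108571449-108571748, plus strand: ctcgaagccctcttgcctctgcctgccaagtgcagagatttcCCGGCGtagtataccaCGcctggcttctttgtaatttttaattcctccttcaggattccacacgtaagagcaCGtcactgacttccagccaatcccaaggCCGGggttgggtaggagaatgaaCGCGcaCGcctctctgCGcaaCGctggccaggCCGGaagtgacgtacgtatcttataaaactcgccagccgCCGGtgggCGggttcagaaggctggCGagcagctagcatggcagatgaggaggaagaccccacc

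In the Bcl6 promoter 14 of 31 CpGs were covered. At its 4 CpGs where reads began, 5 of 36 calls were methylated in wild-type (13.9%) and 2 of 21 in Sca1-BCL6Δ HSPCs (9.52%), and 7 of 54 in B cells of wild-type (13.0%) and 3 of 27 in those of Sca1-BCL6Δ mice (11.1%). At its 9 inner CpGs, where no read began, the counts were 3 of 129, 0 of 79, 0 of 132 and 2 of 128 in the same order. Methylated calls of the endogenous promoter were few, and in these counts more lay at read starts than at inner CpGs in every library. Covered CpGs that were first in some reads and inner in others are left out. Here and below a read is taken to begin at the first CpG listed for it. The Crebbp promoter had 9 of 59 methylated calls at read starts in wild-type HSPCs and 2 of 295 inside reads, and in Sca1-BCL6Δ HSPCs 4 of 43 and 13 of 196. The Dnmt3a promoter had 15 of 78 and 8 of 308 in wild-type HSPCs, and 8 of 63 and 17 of 276 in Sca1-BCL6Δ HSPCs. In the Taf13 promoter of Sca1-BCL6Δ HSPCs 6 of 13 calls at read starts and 11 of 25 inner calls were methylated (46.2% and 44.0%), against 3 of 20 and 5 of 29 in wild-type HSPCs. CCGG occurred in 52.8% and TCGA in 22.0% of the 32851 promoters of the same length in the RefSeq table. Both motifs read the same on either strand and do not overlap each other.

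Gene names in this text rest on a match of CpG spacing. The files carry no gene names and no mm9 annotation was used, so the distances between the CpGs of each RefSeq promoter were matched to those between covered CpGs, without use of cut sites or read starts. Of 15382 promoters tried 4393 matched, against 4 when the spacing was mirrored. A matched promoter was found in 3378 of the 8822 members (38.3%), in 54 of the tiles at 20% to 80% (16.2%) and in 6 of those at 80% or more (5.45%). A member without a name may still overlap a promoter. Members held a median of 30 covered CpGs and a maximum of 95, and 2807 of them (31.8%) adjoined another member.

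Wild-type B cells were sequenced most deeply. Members received 643865 reads in wild-type HSPCs and 465092 in those of Sca1-BCL6Δ mice, and 1077029 in B cells of wild-type and 555724 in those of Sca1-BCL6Δ mice. The median member had 253, 186, 421 and 223 calls in that order (HSPCs, then B cells, wild-type before Sca1-BCL6Δ), which every row of 4 values below keeps, and 8800, 8691, 8822 and 8738 members reached 50 calls, with 8644 reaching 50 in all 4 libraries. A read in a member carried 3.8 to 3.98 CpGs on average, so calls of neighbouring CpGs are not independent. No removal of PCR duplicates is recorded, and the intervals given below (95%, Wilson) cover counting error only.

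The member tiles were lowly methylated in all 4 libraries, with wild-type HSPCs highest. Over all calls the level was 9.84% ± 0.065 in wild-type and 7.88% ± 0.069 in Sca1-BCL6Δ HSPCs, and 7.87% ± 0.048 in B cells of wild-type and 7.22% ± 0.037 in those of Sca1-BCL6Δ mice, where the error is the standard error over 19 autosomes of 1 library. Wild-type HSPCs were above Sca1-BCL6Δ HSPCs on 19 of 19 autosomes, by a mean of 1.99 points. Wild-type B cells were above Sca1-BCL6Δ B cells on 19 of 19, by 0.614 points, an order that turned at inner CpGs (given below). It also turned in members under 10% in wild-type B cells. That limit picks tiles by their low level in this library, so nothing follows from the latter turn. Sca1-BCL6Δ HSPCs and wild-type B cells were not ordered, the former being higher on 11 of 19. The autosomes of a library share its preparation and are no replicates of a condition.

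The median tile stood at 9.63% in wild-type and 7.57% in Sca1-BCL6Δ HSPCs, and 7.71% in B cells of wild-type and 6.93% in those of Sca1-BCL6Δ mice. The central 90% of tiles ranged from 3.51% to 20.1%, from 1.75% to 18.0%, from 3.5% to 15.0% and from 1.96% to 15.8%. The number of tiles at 20% or above was 460 in wild-type (5.23%) and 266 in Sca1-BCL6Δ HSPCs (3.06%) and 121 in B cells of Sca1-BCL6Δ mice (1.38%), while the rule allowed none in wild-type B cells. At inner CpGs alone, described below, these counts were 198, 146 and 75. A level of 50% or more was reached by 1 tile in each HSPC library and by none in Sca1-BCL6Δ B cells. Tiles with no methylated call at all were also rare: 6, 76, 1 and 32 in the order above. Since deeper tiles are less likely to show none, 50 calls were also drawn per tile and library, and the expected share without a methylated call was then 2.72%, 6.71%, 3.63% and 6.74%. At inner CpGs alone this share was 14.5%, 19.3%, 19.1% and 18.9%, so the wild-type B cells no longer stood apart from the Sca1-BCL6Δ libraries. Tile by tile, wild-type B cells minus wild-type HSPCs had a median of -1.72 points and Sca1-BCL6Δ minus wild-type B cells a median of -0.833 points over 8644 tiles, given without a test because the rule used the wild-type B cells.

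**Figure D1:**
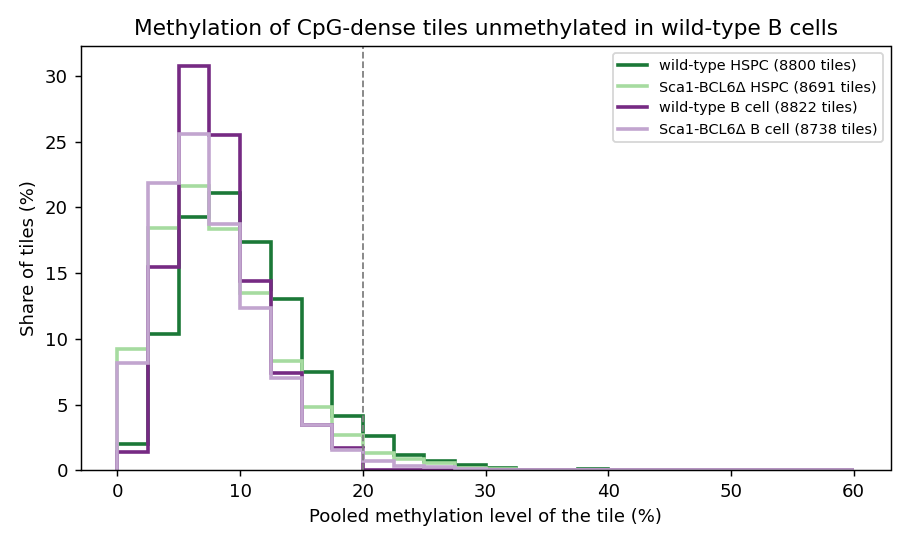
Distribution of methylation levels over member tiles with at least 50 calls (x axis, percent of calls methylated; y axis, percent of the library's tiles), 1 line per library, with the 20% limit dashed. The medians lie between 6.93% and 9.63%, and beyond the limit the wild-type HSPC library has the most tiles (460).

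Raised levels were partly shared between libraries. Of the 8644 tiles with 50 calls in every library, 7942 were under 20% in all 3 libraries the rule did not use, 617 were at or above it in 1 of them, 75 in 2 and 10 in all 3. Wild-type HSPCs were at or above 20% in 425 of these tiles (4.92%), Sca1-BCL6Δ HSPCs in 261 (3.02%) and Sca1-BCL6Δ B cells in 111 (1.28%). Both HSPC libraries were so in 59 tiles, 13.9% of the 425 and 22.6% of the 261. Wild-type HSPCs and Sca1-BCL6Δ B cells shared 26, 6.12% of the 425 and 23.4% of the 111, and the Sca1-BCL6Δ libraries shared 20, 7.66% of the 261 and 18.0% of the 111. Each of these shares was above the corresponding share of all 8644 tiles. Tile levels correlated weakly between libraries, with Spearman's rho from 0.245 to 0.361 over 8644 tiles that share CpG density and cut sites.

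Denser tiles had lower levels. In the 4264 tiles of 20 to 29 CpGs the level was 11.1%, 8.97%, 8.94% and 8.15% in HSPCs (wild-type, then Sca1-BCL6Δ) and B cells (likewise), and in the 354 tiles of 60 or more it was 7.6%, 6.05%, 5.95% and 5.62%. The share of calls at read starts fell with density as well, from 29.3% to 20.8% in wild-type B cells. At inner CpGs alone the level still fell, from 7.08% to 4.77% in wild-type HSPCs and from 5.8% to 3.97% in Sca1-BCL6Δ B cells.

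The level of stray methylation was higher at the CpGs where reads began than at inner CpGs. The members held 75028 CpGs that were always the first of their read and 200198 inner CpGs. At first CpGs the level was 20.2% ± 0.084 in wild-type and 14.4% ± 0.076 in Sca1-BCL6Δ HSPCs, and 17.5% ± 0.061 in B cells of wild-type and 13.5% ± 0.053 in those of Sca1-BCL6Δ mice. At inner CpGs it was 6.23% ± 0.061, 5.71% ± 0.069, 4.46% ± 0.043 and 5.12% ± 0.039, all as standard errors over 19 autosomes. First CpGs exceeded inner ones by 14.0, 8.66, 13.0 and 8.36 points in that order. The step was confined to the first position of the read in these profiles, since offsets of 2 to 33 bases stayed within 5.42% to 7.46%, 4.45% to 6.36%, 3.99% to 5.26% and 4.76% to 6.36%. A further 18613 CpGs were first in some reads and inner in others, and stood at 6.47%, 5.91%, 4.66% and 5.34%. By number, first CpGs held more methylated calls than inner ones in wild-type HSPCs (128692 against 102099) and wild-type B cells (186429 against 119946). They held fewer in Sca1-BCL6Δ HSPCs (66104 against 70785) and Sca1-BCL6Δ B cells (74246 against 75857).

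**Figure D2:**
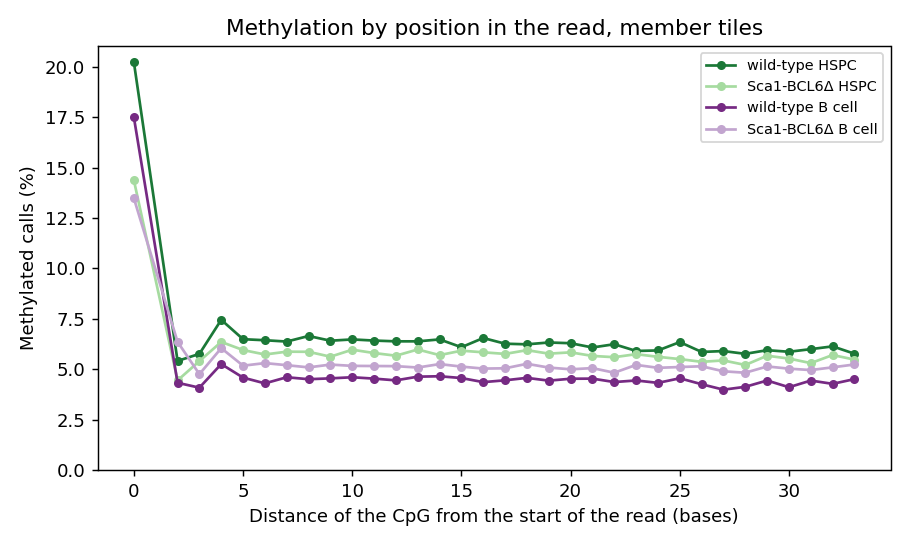
Percent of calls methylated (y axis) against the distance of the CpG in bases from the first CpG listed for its read (x axis). Member tiles are shown, 1 line per library, and that first CpG is taken as the start of the read. Levels of 13.5% to 20.2% at the first position drop to between 3.99% and 7.46% at every later one.

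In matched promoters the sequence around each CpG was known, and 97.876% of first CpGs lay in CCGG or TCGA while 0 of 47956 inner CpGs did. Reads were aligned to the ends of predicted fragments, so these shares largely follow from the alignment. Position in the read and cut site could therefore not be told apart at most CpGs. First CpGs at MspI sites of member tiles stood at 19.5%, 13.5%, 16.5% and 12.7% for HSPCs and then B cells, wild-type before Sca1-BCL6Δ, and those at TaqI sites at 22.9%, 17.9%, 18.6% and 15.4%. The 265 first CpGs at neither site, with 676 to 1684 calls per library, stood at 6.66%, 6.95%, 5.76% and 5.29%, near the inner CpGs of the same promoters at 5.74%, 5.27%, 3.84% and 4.7%. In the 333 CpG-dense tiles at 20% to 80% in wild-type B cells, first CpGs stood at 33.6%, 37.7%, 36.5% and 40.8% and inner CpGs at 22.1%, 28.1%, 24.9% and 31.1%, so the step was present there in all 4 libraries. In the 110 tiles at 80% or more, first and inner CpGs were close in wild-type HSPCs (87.7% and 85.7%) and in wild-type B cells (96.0% and 95.1%).

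The order of the libraries depended on which CpGs were read. At first CpGs wild-type was above Sca1-BCL6Δ on 19 of 19 autosomes in HSPCs, by 5.86 points, and on 19 of 19 in B cells, by 3.95 points. At inner CpGs wild-type HSPCs were above Sca1-BCL6Δ HSPCs on 18 of 19, by 0.555 points, whereas wild-type B cells were below Sca1-BCL6Δ B cells on 19 of 19, the mean of wild-type minus Sca1-BCL6Δ being -0.685 points. HSPCs exceeded B cells at inner CpGs in both genotypes, on 19 of 19 autosomes in wild-type mice (1.82 points) and on 18 of 19 in Sca1-BCL6Δ mice (0.575 points). The members were chosen for low levels in wild-type B cells, so that library is not independent of the rule. When tiles were instead chosen by the Sca1-BCL6Δ HSPC library (8552 tiles, 8425 of them members), inner CpGs stood at 6.23%, 5.47%, 4.53% and 5.13%. Nearly all of those tiles are members, so the choice, made after the data were seen, gives no independent set. The part that library preparation had in these differences was not tested.

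**Figure D3:**
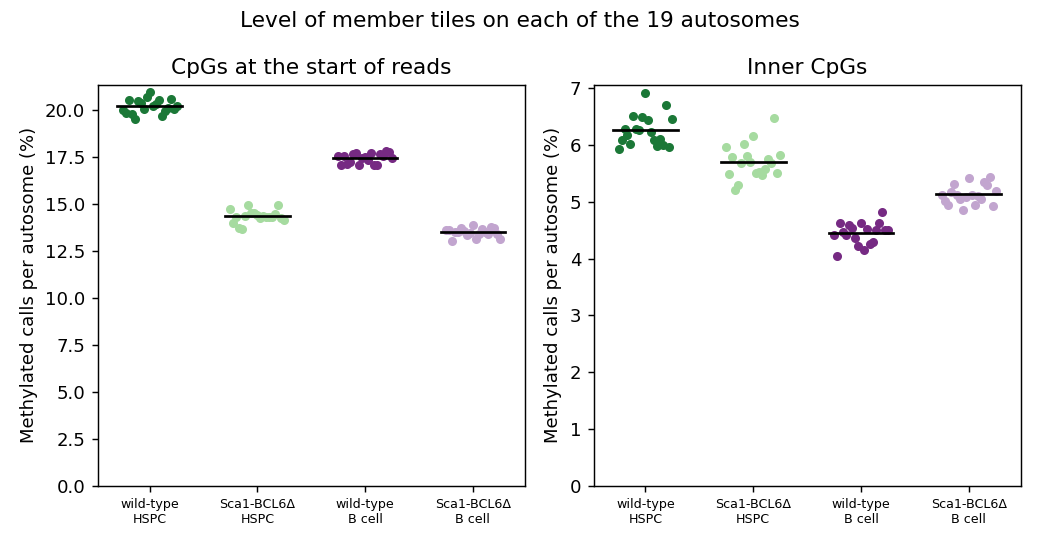
Percent of calls methylated on each of the 19 autosomes (points) and their mean (lines) for CpGs at read starts (left) and inner CpGs (right), member tiles, y axes from 0 and on different scales. Sca1-BCL6Δ B cells lie below wild-type B cells on the left and above them on the right.

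Reads with at least 4 CpGs showed how the methylated calls were arranged on single molecules. In 343438, 261228, 561314 and 311196 such reads, in the usual order, 78.8%, 85.1%, 81.0% and 84.6% had no methylated CpG. Exactly 1 was methylated in 15.1% (interval 14.9% to 15.2%) of wild-type and 9.29% (9.18% to 9.4%) of Sca1-BCL6Δ HSPC reads, and in 14.7% (14.6% to 14.8%) of wild-type and 10.6% (10.5% to 10.7%) of Sca1-BCL6Δ B cell reads. Reads with all CpGs methylated made up 4.88% (4.81% to 4.95%), 4.79% (4.71% to 4.87%), 3.05% (3.0% to 3.09%) and 3.89% (3.82% to 3.96%). Mixed reads were scarce, since 2 to all but 2 CpGs were methylated in 0.568% to 1.07% of reads and all but 1 in 0.151% to 0.234%.

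Of the methylated calls in reads of 4 or more CpGs, fully methylated reads held the largest share in all 4 libraries, at 57.0%, 68.0%, 46.2% and 60.4%. In wild-type B cells reads with 1 methylated CpG held nearly as much, 44.9%. Fully methylated reads were spread over many tiles. Among tiles with at least 50 reads of 4 or more CpGs, the median share of fully methylated reads was 3.85% in both HSPC libraries (2409 wild-type and 1230 Sca1-BCL6Δ tiles). It was 2.53% (5255 tiles) and 3.28% (1980 tiles) in B cells of wild-type and of Sca1-BCL6Δ mice. Tiles with none made up 13.4%, 12.5%, 17.1% and 17.0%, and the highest tile reached 25.9%, 24.1%, 17.8% and 16.2%. In pooled cells, methylation in a minority of cells and on a minority of alleles cannot be told apart. Bisulfite conversion was not measured here, so molecules left unconverted were not separated from methylated ones. In the 110 tiles at 80% or more in wild-type B cells, fully methylated reads were 72.6% to 86.7%.

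**Figure D4:**
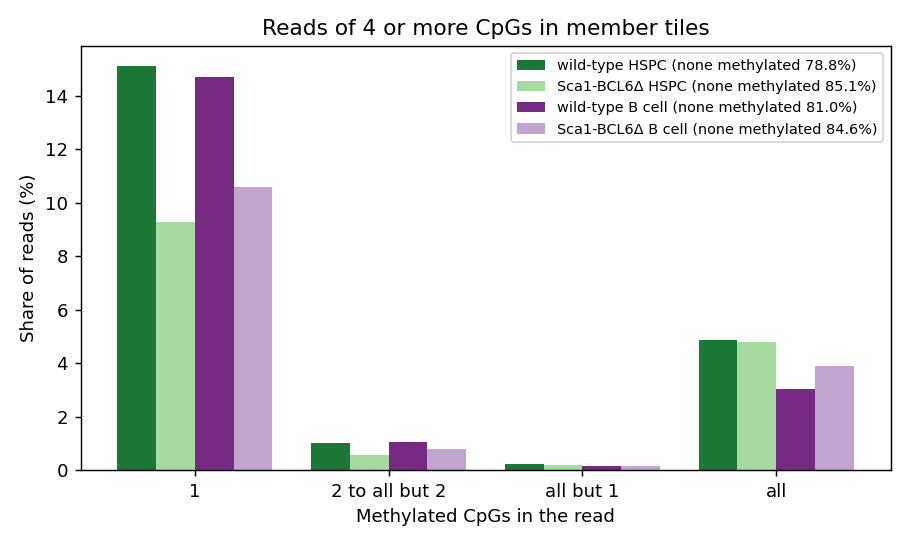
Percent of reads of 4 or more CpGs in member tiles (y axis, from 0) by the number of methylated CpGs in the read (x axis), 1 bar per library. Reads with 1 methylated CpG are more frequent in the wild-type libraries (15.1% and 14.7%), and fully methylated reads are more frequent than reads with an intermediate number.

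The tiles with the highest levels among those with 50 calls in every library differed from library to library. In wild-type HSPCs, chr18:11997001-11998000 had 38 of 80 calls methylated (47.5%, interval 36.9% to 58.3%), with 1.96% in Sca1-BCL6Δ HSPCs, and 10.1% in B cells of wild-type and 5.95% in those of Sca1-BCL6Δ mice. The tile of 2810410L24Rik at chr11:120051001-120052000 stood at 46.4% in wild-type HSPCs and at 15.1%, 19.5% and 16.9% in the other three. Next came chr2:32237001-32238000, with 45.3% in wild-type HSPCs and 2.33% in Sca1-BCL6Δ HSPCs. The tile of Fgf3, a fibroblast growth factor of the embryo, at chr7:152024001-152025000 had 38 of 96 methylated calls (39.6%) against 13.8%, 13.4% and 14.1%.

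In Sca1-BCL6Δ HSPCs the highest tile was chr7:15207001-15208000 with 40 of 66 calls (60.6%), which came from 10 reads; it held 27.6% in wild-type HSPCs, and 8.65% in B cells of wild-type and 4.37% in those of Sca1-BCL6Δ mice. Taf13 at chr3:108374001-108375000 stood at 39.6% (21 of 53 calls, interval 27.6% to 53.1%) in Sca1-BCL6Δ HSPCs with 22.2% in wild-type HSPCs, and 14.3% in B cells of wild-type and 23.6% in those of Sca1-BCL6Δ mice. Its inner CpGs stood at 18.2% in wild-type and 37.9% in Sca1-BCL6Δ HSPCs, and 4.0% in B cells of wild-type and 22.9% in those of Sca1-BCL6Δ mice. A tile at chr4:8462001-8463000 was high in both HSPC libraries, with 83 of 212 calls in wild-type and 38 of 97 in Sca1-BCL6Δ (39.2% each), and low in B cells, with 7.72% in wild-type and 0 of 75 calls in Sca1-BCL6Δ (upper bound 4.87%). The tile at chr11:78738001-78739000 showed the opposite within HSPCs, with 38.4% in Sca1-BCL6Δ and 0 of 83 calls (upper bound 4.42%) in wild-type.

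In Sca1-BCL6Δ B cells chr10:79075001-79076000 had 28 of 58 calls methylated (48.3%), with 28.8% and 35.4% in the HSPC libraries and 16.7% in wild-type B cells. Cbs, which encodes the cystathionine synthase of the transsulfuration pathway, lay at chr17:31774001-31775000 and stood at 38.9% in wild-type and 30.2% in Sca1-BCL6Δ HSPCs, at 10.6% in wild-type B cells and at 44.3% in those of Sca1-BCL6Δ mice. Iars2, a mitochondrial isoleucyl-tRNA synthetase gene, at chr1:187153001-187154000 stood at 34.9% (74 of 212 calls) against 9.87%, 11.4% and 11.8%. Rala, a Ras-like GTPase gene, at chr13:18036001-18037000 stood at 34.4% (44 of 128 calls) and had 0 of 58 methylated calls in Sca1-BCL6Δ HSPCs (upper bound 6.21%). These 15 tiles were chosen as the highest, so their values are a description, and reads rather than calls set their precision: the libraries in which they were highest gave 10 to 79 reads each.

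The 5 tiles with most CpGs were low in every library, between 1.59% and 10.2%. Sdk1, a cell adhesion gene, at chr5:141717001-141718000 held 95 CpGs and stood at 9.48%, 4.57%, 4.63% and 1.59%. Mark1, a kinase gene sharing its tile at chr1:186823001-186824000 with Gm39728, held 94 CpGs and stood at 6.3%, 10.2%, 4.5% and 3.91%. Just inside the limit lay chr15:31297001-31298000 and chr6:40275001-40276000 at 19.9% each in wild-type B cells, and just outside it chr1:9289001-9290000 with 51 of 255 and chr1:137271001-137272000 with 24 of 120 calls methylated. In Sca1-BCL6Δ B cells the first pair stood at 9.01% and 4.31%.

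Of Bcl6, its cofactors and targets 13 of 33 listed genes had a matched member tile, 24 of the 33 having a promoter sequence to match. The Bcl6 tile, chr16:23988001-23989000, stood at 5.6% in wild-type and 9.21% in Sca1-BCL6Δ HSPCs, and 4.44% in B cells of wild-type and 6.38% in those of Sca1-BCL6Δ mice. Levels of the list ran from 4.14% for Crebbp to 22.1% for Stat3 in wild-type HSPCs. Ncor1, a corepressor that Bcl6 recruits, stood at 13.5%, 2.88%, 6.13% and 6.73%. Cdkn2a, which encodes cell cycle inhibitors, stood at 5.42%, 16.4%, 9.54% and 15.7%, on 172 to 325 calls per library. By all calls, Bcl6 and Cdkn2a of the 13 genes had both Sca1-BCL6Δ libraries above both wild-type ones. Bcl2, Fbxo11 and Hdac7 had both below. Over all 8644 members with 50 calls in every library the same held for 9.39% above and 26.4% below, and at inner CpGs alone for 16.7% and 16.1% of 7930. At inner CpGs Cdkn2a stayed above and Hdac7 below. Bcl6 stood there at 2.48%, 6.11%, 3.01% and 3.04%, nearly level in B cells. Bcl2 (2.76%, 4.41%, 2.49% and 1.45%) and Fbxo11 (5.68%, 6.56%, 11.9% and 11.8%) were no longer below. Orders given for the lists that follow use all calls unless inner CpGs are named.

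Among B lineage regulators 3 of 39 genes (28 with a promoter sequence) had a matched member tile: Foxp1, Ikzf1 and Tcf3, transcription factors of early B cells, with levels from 3.64% to 12.8% over the 4 libraries. Stem and progenitor regulators had 7 of 38 (28 with a sequence), of which 0 had both Sca1-BCL6Δ libraries above both wild-type ones and 3 (Cebpb, Hhex and Myb) had both below. Runx1, a master regulator of definitive hematopoiesis, stood at 13.5% and 16.3% in the HSPC libraries and at 6.03% and 6.76% in B cells, and Myb, a progenitor transcription factor, at 17.7% and 15.7% in the wild-type libraries and at 4.67% and 4.1% in the Sca1-BCL6Δ ones. Hhex, a homeobox gene of progenitors, stood at 9.33% and 11.6% in wild-type HSPCs and B cells and at 4.14% and 0.943% in Sca1-BCL6Δ.

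The DNA methylation machinery had 13 of 29 genes in members, with 22 of the 29 having a promoter sequence. By all calls Gadd45b and Setd1a had both Sca1-BCL6Δ libraries above and Gadd45a, Kmt2a, Kmt2d and Tet2 had both below. At inner CpGs Kmt2a stood at 3.02%, 3.18%, 2.43% and 3.32%, so both Sca1-BCL6Δ libraries were above. Gadd45a, at 5.85%, 6.06%, 4.94% and 0.0%, was in neither order. Gadd45b, Setd1a, Kmt2d and Tet2 kept theirs. Idh1 (0.0%, 12.3%, 0.0% and 2.04%) and Tet3 (6.21%, 8.23%, 7.3% and 7.69%), in neither order by all calls, had both Sca1-BCL6Δ libraries above at inner CpGs. Tet2 stood at 19.1% in wild-type and 4.81% in Sca1-BCL6Δ HSPCs, and 10.5% in B cells of wild-type and 3.27% in those of Sca1-BCL6Δ mice, and Uhrf1 at 16.5%, 14.6%, 5.22% and 8.0%. Uhrf2 lay in a CpG-dense tile above the limit, at 25.2%, 21.4%, 22.5% and 24.1%. Polycomb subunits, which repress developmental genes, had 8 of 17 (14 with a sequence). By all calls 1 had both Sca1-BCL6Δ libraries above (Cbx7) and 2 had both below (Phc2 and Rnf2), with Rnf2 at 21.1%, 8.16%, 12.6% and 5.71%. At inner CpGs Cbx7 stayed above. Phc2 (3.48%, 3.6%, 6.84% and 0.629%) and Rnf2 (20.2%, 6.42%, 6.32% and 6.09%) were not below there.

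Developmental transcription factors had 31 of 122 genes in members and 6 in CpG-dense tiles above the limit. Among the latter Hoxa5 stood at 80.2%, 93.2%, 91.3% and 85.5%, while its neighbour Hoxa6 stood at 14.1%, 23.9%, 17.9% and 17.0%. The Wnt ligands had 10 of 15 genes in members, from 0.763% for Wnt9b to 13.7% for Wnt3 in wild-type HSPCs. The ribosomal proteins had 20 of 62 and the translation initiation factors 22 of 42, all listed genes of these 4 lists having a promoter sequence. By all calls both Sca1-BCL6Δ libraries were above both wild-type ones in 3 and below in 10 of the 31 developmental factors. For the 10 Wnt ligands these counts were 1 and 2. They were 0 and 9 for the 20 ribosomal protein genes and 0 and 4 for the 22 initiation factors. Over 8644 members the shares were 9.39% above and 26.4% below, and at inner CpGs 16.7% and 16.1% of 7930. At inner CpGs Dlx2, Foxk2, Foxo3, Hoxd11, Nkx6-1, Rpl13, Rpl34, Rpl37, Rps15, Rps19 and Eif4a3 were no longer below. The other genes in these orders by all calls kept theirs. Genes that entered an order only at inner CpGs are left out. Median tile levels of the 9 lists were between 7.19% and 12.5% in wild-type HSPCs, against 9.63% for all members, and between 4.27% and 8.49% in Sca1-BCL6Δ B cells, against 6.93%. In the 2 comparisons tested below, none of the tested tiles of any list was called.

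**Figure D5:**
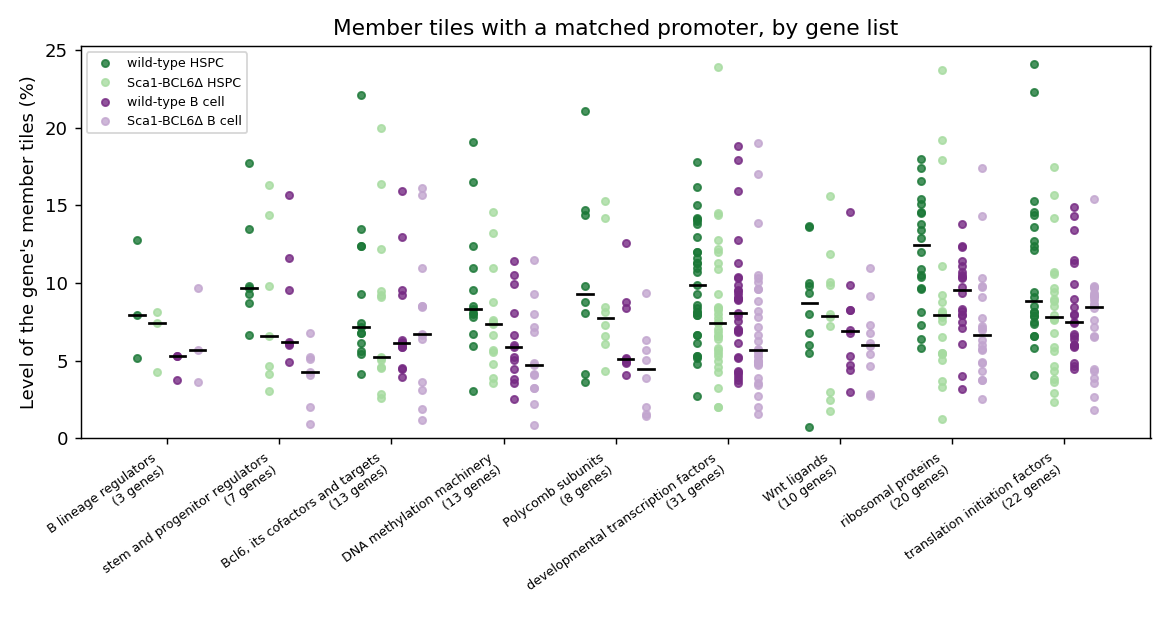
Methylation level (y axis, percent of calls) of member tiles whose matched promoter belongs to each gene list (x axis, number of genes in brackets), 1 point per gene and library with at least 50 calls, and the median as a bar. Most points lie under 20% in all lists, and the wild-type HSPC median is highest for ribosomal proteins.

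Genotype in HSPCs was compared tile by tile with a Cochran-Mantel-Haenszel test on CpGs of at least 10 reads in both libraries, taken more than 50 bases apart so that no read counted more than once, and tiles were called at an adjusted p (Benjamini-Hochberg over all tiles) under 0.05 with a difference of at least 20 points. Such a test compares the reads of 2 libraries, not the conditions. No member was called of 6091 tested, while over all 11191 tiles 2 were called higher and 2 lower (0.0179% each, 0.0357% together). At an unadjusted p under 0.05 there were 171 members, 2.81% of them against 3.48% of all tiles. The median difference, Sca1-BCL6Δ minus wild-type, was -1.76 points in members and -0.945 in all tiles, with 3745 members below 0 and 2273 above. The smallest adjusted p among members was 0.15. A tile that was not called is not shown to be alike in both libraries. The CpGs kept were the first at such spacing in each tile, and when they were taken from the other end no member was called and all tiles again gave 2 higher and 2 lower, of which 2 in all were shared. An exact conditional test on the same CpGs called 1 member higher and 1 lower: the tile of Slc16a12, a monocarboxylate transporter family gene, at chr19:34821001-34822000 (adjusted p = 0.025) and chr3:63768001-63769000 (adjusted p = 0.018). Their p-values rest on the 2 and 3 CpGs kept after thinning. Mean levels were taken before thinning, over 3 and 5 CpGs. They were 27.2% in Sca1-BCL6Δ against 0.0% in wild-type, and 0.0% against 28.3%. Over all its calls the Slc16a12 tile stood at 11.1% in wild-type and 14.8% in Sca1-BCL6Δ HSPCs. The tile on chromosome 3 stood at 21.0% and 5.65%. Calls of the exact conditional test over all tiles were not counted.

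At single CpGs a two-sided exact test of Fisher, adjusted by Benjamini-Hochberg over 99971 CpGs, called none of 50966 CpGs in members, with 809 at an unadjusted p under 0.05 (1.59%, against 4.44% of all CpGs), while over all CpGs 25 were called higher (0.025%) and 12 lower (0.012%), 37 in all (0.037%). The smallest adjusted p was 0.054.

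Between the B cells and HSPCs of Sca1-BCL6Δ mice, which differ in cell type and in the presence of the transgene, the Cochran-Mantel-Haenszel test called none of 6082 member tiles, against 1 higher and 1 lower of all 11089 (0.00902% each, 0.018% together), with 78 members at an unadjusted p under 0.05 (1.28%, against 1.52% of all tiles). The exact conditional test called none either. The median difference in members was -0.0773 points. Of 51673 CpGs in members 1 was called, lower in B cells, against 9 higher and 9 lower of all 98408 (0.00915% each, 0.0183% together), with 475 at an unadjusted p under 0.05 (0.919%, against 1.74% of all CpGs). It was the inner CpG at position 145811293 of chromosome 6, with 11 of 13 reads methylated in Sca1-BCL6Δ HSPCs and 0 of 12 in Sca1-BCL6Δ B cells (Fisher's exact test, adjusted p = 0.04), and 7 of 15 and 7 of 16 in wild-type HSPCs and B cells. The call was lost at CpGs of 5 or more reads and without CpGs of over 100 reads. The smallest adjusted p of any CpG in members by Fisher's exact test was then 0.14 and 0.13. At 20 or more reads this CpG, with 13 and 12 reads, was not tested. The smallest adjusted p of the CpGs in members tested there was 0.083. The wild-type B cell library, having chosen the members, entered no test.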

How the data were processed

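Genomic DNA pooled from 6 to 9 mice per condition was cut with MspI and TaqI, its ends filled in, bisulfite-treated and sequenced, per the labels' protocols. The submitters' methods text states alignment of 36-base ends of predicted fragments of 40 to 220 bases, mm9 being the build named in the submitters' processing notes; the authors' software version and duplicate removal are not given in the sources used here. The authors deposited, per CpG, methylated and total read counts as a quoted pair with a score (methylated share scaled), and, per read, the percent of its CpGs methylated with the count of CpGs, per the file headers.

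CpGs of both strands were joined by position, and calls were summed per tile of 1000 bases with pandas 2.3.3 and scipy 1.17.1 in Python 3.11.15. The position of each CpG in its read came from the read tables and was counted from the first CpG listed for the read. The tile and CpG tests were tested on simulated counts, drawn independently for each CpG at the real coverages. Dependence of calls within a read was not simulated. Members and gene lists were chosen with earlier results of these data known; the split into first and inner CpGs, the promoter matching thresholds, density bins, read classes and the promoters printed were chosen after values were seen, and the gene lists were shortened after seeing which genes had a matched tile, with X-linked and a few other genes dropped. The tiles named were the 5 highest per library not used by the rule with at least 50 calls in all 4 libraries, any called, the 5 with most CpGs and 2 on each side of the limit; genes of the lists, promoters and tiles called by another test were chosen after values were seen. With 1 library per condition no test between conditions was possible.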

Additional observations from a re-analysis of the deposited data

Results flagged for a closer look

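At inner CpGs of member tiles the difference Sca1-BCL6Δ minus wild-type was -0.526 points in HSPCs and 0.666 points in B cells, so the libraries moved in opposite directions in the 2 cell types. Among reads of 4 or more CpGs, the share with all CpGs methylated differed by -0.09 points in HSPCs and 0.84 points in B cells. Neither difference between cell types was tested, since each condition had 1 library, and the wild-type B cell library, which enters the B cell difference, chose the members.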

How the results depend on the processing

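Values are for HSPCs and then B cells, wild-type before Sca1-BCL6Δ, and counts leave out the wild-type B cell library. Of 124 alternatives over 27 results 63 stayed the same and 61 moved, a count being the same within 1.5 times and a level or share within the 95% Wilson interval of its reported value. These are values of single libraries, so the order between libraries was not among them. That of the B cell libraries turned at inner CpGs. It also turned in members under 10%, but that limit picks tiles by their low level in wild-type B cells. Pooled levels were 9.103%, 7.233%, 6.493% and 6.631% in members under 10%, 9.202%, 7.346%, 7.305% and 6.767% in members of 30 or more CpGs, 10.38%, 8.423%, 8.234% and 7.651% as means of tile levels, 6.234%, 5.708%, 4.456% and 5.122% at inner CpGs and 9.826%, 7.626%, 7.948% and 7.226% with members chosen by the Sca1-BCL6Δ HSPC library. Tiles at 20% or above numbered 186, 111 and 41 in members under 10%, 109, 58 and 23 with 30 or more CpGs and 198, 146 and 75 at inner CpGs. The share of tiles expected to show no methylated call in 50 drawn calls was 2.716%, 6.713%, 3.629% and 6.744%, against 0.3285%, 1.467%, 0.3781% and 1.404% in 100 and 14.52%, 19.29%, 19.07% and 18.85% at inner CpGs. Fully methylated reads were 5.544%, 5.272%, 3.51% and 4.298% among reads of 3 or more CpGs and 3.445%, 3.598%, 2.232% and 2.977% among those of 6 or more, and reads with 1 methylated CpG 14.72%, 9.17%, 14.51% and 10.33% and 15.71%, 9.769%, 15.21% and 11.28%. Without thinning, 26 members were called higher and 56 lower for HSPC genotype and 8 and 29 between Sca1-BCL6Δ B cells and HSPCs. Neighbouring CpGs of 1 read are then counted as independent. Calls over all tiles or CpGs were not counted without thinning, by the exact conditional test or at 20 or more reads. Members cannot be set against the rest at these settings. CpGs thinned from the other end of the tile gave no member call, with 0.0035 as the smallest adjusted p among members for HSPC genotype by the Cochran-Mantel-Haenszel test at a difference under 20 points. The exact conditional test called 1 member higher and 1 lower for HSPC genotype. At CpGs of 20 or more reads 2 were called lower for HSPC genotype, and the CpG on chromosome 6 was no longer called (0) at 5 or more reads, at 20 or more, or without CpGs of over 100 reads; the cause was not tested. The inner CpG alternatives, the choice by the Sca1-BCL6Δ HSPC library, thinning from the other end and a minimum of 20 reads per tile were added after the data were seen. No paired analysis was possible because each condition had 1 library and no 2 groups share more than 1 replicate number, and setting genotype within cell type would use the wild-type B cell library, which chose the members. No library could be left out. Depth limits the single tile: 0 methylated of 75 calls allows a level of up to 4.87%.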
